A study of Homo sapiens with 6 samples.

Results

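The mitochondrial arm of apoptosis was described here through 7 genes in MDA-MB-231, a triple-negative line of human breast cancer whose p53 is mutant. The genes are the apoptosome scaffold gene APAF1, the pro-survival gene BCL2, the effector gene BAK1, and the BH3-only genes BBC3, BMF, BCL2L11 and BAD. All 7 were found among 14884 genes named through the platform annotation, and all 7 were bright enough to be among the 10640 genes tested. They were chosen from apoptosome and BCL2 family genes with their log2 values under siATM, sip53 and siNC already known. For these 7 genes the values are therefore a description without a test.

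The cells were transfected with siATM, an siRNA against ATM, with sip53, an siRNA against p53, or with the control siRNA siNC, in each case with a lipid reagent. Each siRNA had 2 samples with 1 Affymetrix Human Gene 2.0 ST array each, and separate cultures are not stated, so p-values cover only how far these samples differ, which could be technical variation. All 3 groups are the same cell line, with its mutant p53, grown in serum-supplemented medium, and no DNA-damaging agent is named in the labels. The siRNA sequences, and the transcript levels of the ATM and p53 genes that would check the knockdowns, were not analysed here.

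Cells under stress can be committed to death at the outer mitochondrial membrane. BH3-only proteins sense the stress and either neutralise pro-survival proteins such as BCL2 or switch on the effectors BAK and BAX, which then open pores in the membrane. Cytochrome c leaves through the pores and binds APAF1, which assembles into the wheel-shaped apoptosome and activates the initiator caspase. Several of these genes, among them BBC3, BAX and PMAIP1, are known targets of wild-type p53, and BCL2L11 and BBC3 are also known targets of FOXO transcription factors.

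The deposited values are log2 intensities of probe sets, given below as log2 values. Array medians lay between 5.95 and 5.98. Markers of the line were bright, with VIM, CD44, AXL and MSN between percentile 96.2 and percentile 99.4 of all probe sets, and the hormone receptor genes PGR and ESR1 were at percentile 27.9 and percentile 45.5. CAV1, also fixed as a marker of the line, was unnamed in the annotation used. Of the luminal markers, KRT18 was at percentile 98.5, EPCAM at percentile 86.8 and GATA3 at percentile 81.8, and CDH1 was unnamed. Mean log2 values of GATA3 were 8.39 with siATM and 8.73 with sip53, against 8.08 with siNC, and the part of this in the apoptosis genes was not tested. Among 6 blood and endothelial markers 1, PECAM1, was named, with mean log2 values of 6.06 with siATM and 6.54 with sip53, against 6.53 with siNC, and its part was likewise not tested.

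APAF1 was lowest with siATM. Its log2 values were 7.47 and 7.32 with siATM and 8.15 and 8.21 with sip53, against 8.48 and 8.38 with siNC. No array of one group reached into another group, and the order from lowest to highest was siATM, sip53, siNC. The siATM mean was 7.40 ± 0.11 and the siNC mean 8.43 ± 0.07 (SD, n = 2 each), a log2 difference of −1.03 (SE 0.07), or 2.05-fold lower with siATM. By size this difference stood 34th among the 10640 genes. In bulk RNA, fewer cells with a transcript and less of it per cell cannot be told apart. For sip53 the mean was 8.18 ± 0.04 (SD, n = 2) and the log2 difference to siNC −0.25 (SE 0.07), and siATM lay 0.78 below sip53 on the log2 scale (difference −0.78, SE 0.07).

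BCL2, the founding pro-survival member of the family, stood in the same order as APAF1 over a smaller range. On the log2 scale it read 6.39 and 6.27 with siATM and 6.55 and 6.71 with sip53, against 6.72 and 6.87 with siNC. The siATM arrays lay below all others, and the upper sip53 array lay just under the lower siNC array. The log2 difference was −0.47 (SE 0.08) for siATM against siNC, −0.16 (SE 0.08) for sip53 against siNC and −0.31 (SE 0.08) for siATM against sip53. The sip53 mean, 6.63 ± 0.11, and the siNC mean, 6.80 ± 0.11 (SD, n = 2 each), were thus 1.12-fold apart with a spread between arrays of nearly that size. That difference was −0.08 without sip53 replicate 1 and −0.09 without siNC replicate 2. BCL2 was the dimmest of the 7 probe sets, at percentile 61.0.

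BAK1, which encodes a pore-forming effector, was highest with sip53. BAK1 log2 values were 11.31 and 11.45 with siATM and 11.52 and 11.59 with sip53, against 11.33 and 11.29 with siNC. The siATM and siNC arrays overlapped, with a log2 difference of 0.07 (SE 0.07), while both sip53 arrays were above the rest, 0.24 (SE 0.07) over siNC. For siATM against sip53 the log2 difference was −0.18 (SE 0.07), and −0.11 without siATM replicate 1. The human genome holds the BAK1 pseudogenes BAK1P1 and BAK1P2, and probes that match them too would make the BAK1 value uncertain.

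BBC3 encodes PUMA, a BH3-only protein that binds all pro-survival family members. Its log2 values were 7.47 and 7.67 with siATM and 7.17 and 7.28 with sip53, against 7.12 and 7.10 with siNC. The siATM arrays were the highest, and both sip53 arrays were slightly above siNC. The mean was 7.57 ± 0.15 with siATM and 7.23 ± 0.07 with sip53, against 7.11 ± 0.01 with siNC (SD, n = 2 each). This gave log2 differences of 0.46 (SE 0.08) for siATM against siNC, 0.12 (SE 0.08) for sip53 against siNC and 0.34 (SE 0.08) for siATM against sip53. Without sip53 replicate 2 the sip53 difference to siNC was 0.07.

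BMF encodes a BH3-only protein that is held on the actin-linked myosin motors until released. Log2 values of BMF were 7.55 and 7.53 with siATM and 8.12 and 7.97 with sip53, against 7.33 and 7.28 with siNC. The 3 groups were separate, with sip53 highest and siATM between sip53 and siNC. The sip53 mean of 8.04 ± 0.11 against the siNC mean of 7.30 ± 0.04 (SD, n = 2 each) was a log2 difference of 0.74 (SE 0.07), or 1.67-fold, and stood 60th by size among the 10640 genes. The siATM mean was 7.54 ± 0.02 (SD, n = 2), 0.24 (SE 0.07) over siNC and 0.50 under sip53 (log2 difference −0.50, SE 0.07).

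BMF was the only one of the 7 genes with a second probe set in the annotation. That probe set had log2 values of 5.20 and 5.20 with siATM and 5.63 and 5.67 with sip53, against 5.47 and 5.51 with siNC. Its mean of 5.45 lay under 5.96, the median of all probe-set means and the limit for testing. There siATM was the lowest group, with a log2 difference to siNC of −0.29, opposite in sign to 0.24 in the brighter probe set. The sip53 arrays were the highest in both, with a log2 difference to siNC of 0.16 in the dimmer one, and siATM was below sip53 in both, by −0.45 in the dimmer and −0.50 in the brighter. The direction of BMF after siATM therefore depended on the probe set, and with the mean of both probe sets the difference to siNC was −0.02 for siATM and 0.45 for sip53.

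BCL2L11, which encodes the dynein-bound BH3-only protein BIM, followed the order of the brighter BMF probe set. The log2 values were 7.59 and 7.56 with siATM and 7.81 and 7.74 with sip53, against 7.42 and 7.47 with siNC. The sip53 arrays were the highest and the siATM arrays lay between sip53 and siNC with no overlap. The mean was 7.77 ± 0.05 with sip53 and 7.45 ± 0.04 with siNC (SD, n = 2 each), a log2 difference of 0.32 (SE 0.06). For siATM against siNC it was 0.12 (SE 0.06), and for siATM against sip53 −0.20 (SE 0.06).

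BAD, a BH3-only gene whose protein is kept inactive by phosphorylation, was on opposite sides of siNC under the 2 siRNAs, as was the dimmer BMF probe set. BAD log2 values were 9.42 and 9.67 with siATM and 9.24 and 9.16 with sip53, against 9.29 and 9.33 with siNC. Both siATM arrays were above and both sip53 arrays below the control arrays. The log2 difference was 0.23 (SE 0.09) for siATM against siNC, −0.11 (SE 0.09) for sip53 against siNC and 0.35 (SE 0.09) for siATM against sip53. The 2 siATM arrays were 0.25 apart on the log2 scale, the widest gap within a group among the 7 genes, and without siATM replicate 2 the siATM difference was 0.11 to siNC and 0.22 to sip53. Without siATM replicate 1 the difference to siNC was 0.36.

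**Figure D1:**
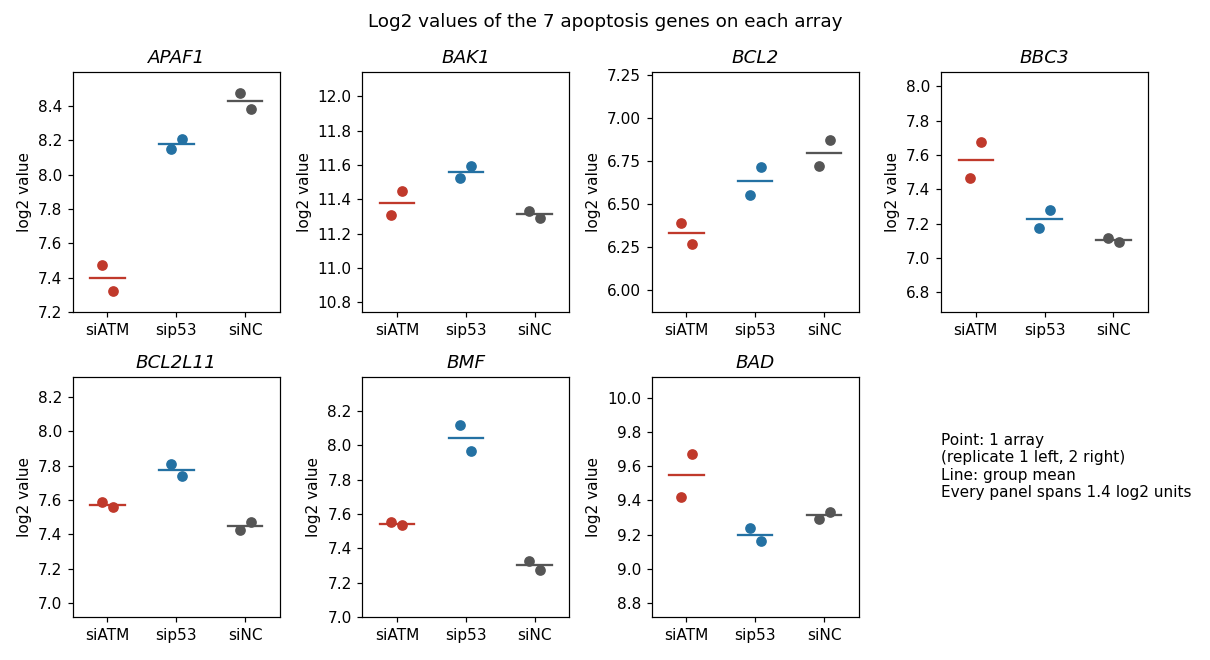
Log2 value of each of the 7 genes on each of the 6 arrays, by siRNA, with 1 point per array and a line at the group mean. APAF1 and BCL2 are lowest with siATM, BBC3 and BAD highest with siATM, and BMF, BCL2L11 and BAK1 highest with sip53.

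In the limma fit over all 10640 genes, with an adjusted p below 0.05 as the call, 2 of the 7 genes were called higher with siATM than with siNC (BBC3 and BMF) and 2 lower (APAF1 and BCL2), while of all genes tested 12.5% were called higher and 13.0% lower. With sip53 against siNC 2 of the 7 were called, both higher (BMF and BCL2L11), while 5.47% of all genes were called higher and 5.11% lower. With siATM against sip53 2 were called higher (BBC3 and BAD) and 4 lower (APAF1, BCL2, BCL2L11 and BMF), while 14.0% of all genes were called higher and 16.3% lower. Since the genes were picked with these comparisons known, nothing is read from these counts. For sip53 against siNC the count was 1 on dropping any single siNC or sip53 array or the filter on dim genes, 3 on dropping either siATM array and 4 with a variance trend. For siATM against sip53 it was 3 on dropping siATM replicate 2, either sip53 array or the filter. After median centring of the arrays over the tested genes, the calls of all genes for sip53 against siNC split into 410 higher and 668 lower, in place of 582 and 544.

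Arrays did not overlap between siATM and siNC for 6 of the 7 genes, between sip53 and siNC for 7 and between siATM and sip53 for 7. The same held for 62.7%, 58.9% and 65.4% of all genes tested, in that order, so with 2 arrays a group a lack of overlap was common. The median log2 difference of the 7 genes was 0.12 for siATM against siNC, 0.12 for sip53 against siNC and −0.20 for siATM against sip53. Over all genes tested these medians were −0.0006, 0.01 and −0.01. In size, without sign, the 7 had median log2 differences of 0.24, 0.24 and 0.34 in the same comparisons, and all genes 0.13, 0.10 and 0.14. The 2 comparisons with siNC share its arrays, so their values are set side by side only.

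**Figure D2:**
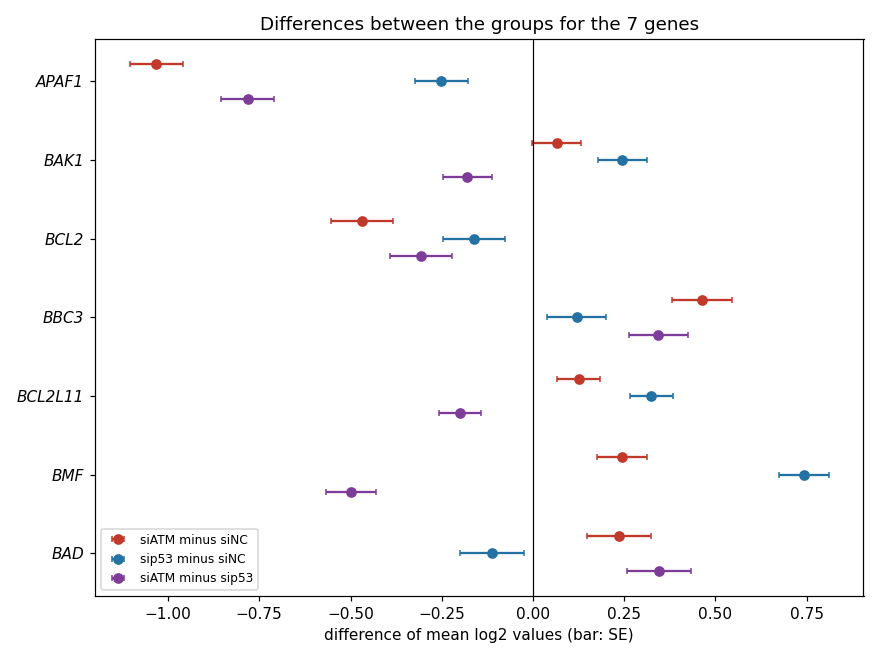
Difference of mean log2 values for each of the 7 genes in the 3 comparisons, with bars of 1 standard error on either side. APAF1 lies at −1.03 for siATM minus siNC and BMF at 0.74 for sip53 minus siNC, and the other differences from siNC lie between −0.47 and 0.46.

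With siATM, the apoptosome scaffold APAF1 and the pro-survival BCL2 were both lower than with siNC, while all 4 BH3-only genes had positive differences, from 0.12 in BCL2L11 to 0.46 in BBC3, with the sign of BMF differing between its probe sets. With sip53, 3 of these 4 BH3-only genes had positive differences, from 0.12 in BBC3 to 0.74 in BMF. BAD had a negative one, and BAK1 was 0.24 higher. Of the 5 other BH3-only genes tested, 3 had positive differences with siATM and 3 with sip53. Among the 4 BH3-only members, BBC3 and BAD were highest with siATM, and BMF and BCL2L11 with sip53. Fold differences of these 4 genes to siNC were at most 1.38-fold with siATM (BBC3) and 1.67-fold with sip53 (BMF, in its brighter probe set).

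Promoter sequences of 4 of the genes are shown as examples, APAF1, lowest with siATM, and BMF, BCL2L11 and BAK1, highest with sip53. BCL2 was also lowest and BBC3 and BAD highest with siATM, so these values do not set the 4 apart. Each sequence is the 250 bases before a RefSeq transcript start (build GRCh38.p14), read along the gene's strand. They come from the 9 windows that RefSeq-derived sequences gave for the 7 genes. Capitals mark matches on either strand to the motifs GTAAACA (the FOXO core), GGGGCGGGG (a GC box), CCAAT (read as ATTGG on the other strand) and the p53 half-site consensus. The windows are chr12:98645040-98645289 on the plus strand for APAF1, chr15:40108880-40109129 on the minus strand for BMF (the first of 2 windows), chr2:111120664-111120913 on the plus strand for BCL2L11 and chr6:33580277-33580526 on the minus strand for BAK1.
APAF1: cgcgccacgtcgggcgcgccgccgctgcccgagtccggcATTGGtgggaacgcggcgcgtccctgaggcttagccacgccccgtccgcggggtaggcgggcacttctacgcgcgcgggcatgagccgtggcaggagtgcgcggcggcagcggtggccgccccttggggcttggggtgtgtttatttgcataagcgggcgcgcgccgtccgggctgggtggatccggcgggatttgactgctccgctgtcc
BMF: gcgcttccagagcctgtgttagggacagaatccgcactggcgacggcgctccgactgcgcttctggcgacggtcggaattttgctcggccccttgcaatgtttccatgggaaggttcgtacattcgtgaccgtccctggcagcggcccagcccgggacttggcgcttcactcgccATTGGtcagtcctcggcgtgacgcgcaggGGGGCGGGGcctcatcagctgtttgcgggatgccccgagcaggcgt
BCL2L11: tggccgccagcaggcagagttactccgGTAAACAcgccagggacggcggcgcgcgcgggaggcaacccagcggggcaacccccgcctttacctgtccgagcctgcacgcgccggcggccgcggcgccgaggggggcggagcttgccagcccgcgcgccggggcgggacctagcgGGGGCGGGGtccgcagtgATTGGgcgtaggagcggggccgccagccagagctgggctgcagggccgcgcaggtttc
BAK1: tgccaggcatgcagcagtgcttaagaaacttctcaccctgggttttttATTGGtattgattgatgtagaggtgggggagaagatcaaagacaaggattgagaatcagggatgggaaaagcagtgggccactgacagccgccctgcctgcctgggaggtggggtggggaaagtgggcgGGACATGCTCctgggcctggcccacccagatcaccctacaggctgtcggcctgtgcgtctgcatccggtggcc

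The FOXO core was found in 1 of the 9 windows, that of BCL2L11, from 223 to 217 bases before the start, and in 2.98% of all 35116 windows of this length. A p53 half-site was found in 1 of the 9, that of BAK1, from 73 to 64 bases before the start, and in 5.57% of all windows. The E2F words TTTGGCGC, TTTCCCGC, TTTCGCGC and TTTGCCGC were in 0 of the 9 and in 2.79% of all windows. GC boxes were in 4 of the 9 (BCL2L11, BMF and both BAD windows) and in 15.1% of all, and CCAAT in 7 of the 9 and in 32.0% of all. The BAD windows overlap and hold the same sites, so these are 3 and 6 of the 7 genes. The windows of APAF1 and BCL2L11 were rich in G and C, at 73.6% and 76.8%, with 38 and 34 CpG pairs, while the BBC3 window had 49.2% and 4 pairs, and the median window 58.0% and 11 pairs. A match is no evidence that a factor binds, and the absence of one covers only these letters in this stretch.

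The pathway around the 7 genes was followed in 9 lists holding 74 other genes, of which 39 were named and 36 tested. The lists were chosen with earlier results of these data known, so nothing is read from their counts and shares. With siATM against siNC 3 of the 36 were called higher and 5 lower, and with sip53 0 were called higher and 4 lower. In the direct comparison of siATM with sip53 6 were higher and 7 lower, or 16.7% and 19.4%, against 14.0% and 16.3% of all genes. At an unadjusted p under 0.05, sip53 against siNC had 2 of the 36 higher and 10 lower. Of all 10640 genes tested, 2812 were under 0.05 in the same comparison. Their split into higher and lower was not counted, so no direction is read from the 2 and 10. As shares of the 36, the siATM calls were 8.33% higher and 13.9% lower and the sip53 calls 0% and 11.1%, against 12.5% and 13.0% of all genes with siATM and 5.47% and 5.11% with sip53. The median log2 difference over the 36 genes was −0.01 for siATM and −0.03 for sip53 against siNC, and 0.07 for siATM against sip53. The partners that APAF1 acts with in the apoptosome were not analysed here.

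Among pro-survival genes, MCL1 and BCL2L1 (which encodes BCL-XL), the 2 of 5 listed relatives of BCL2 that were tested, both fell with sip53. MCL1 had log2 values of 9.80 and 9.80 with sip53, against 10.16 and 10.07 with siNC, a difference of −0.31 (SE 0.06, limma adjusted p = 0.0215). BCL2L1 had log2 values of 11.53 and 11.51 with sip53, against 11.83 and 11.76 with siNC, a difference of −0.27 (SE 0.06, limma adjusted p = 0.0289). With siATM their differences to siNC were −0.02 and −0.05 and neither was called, and both were higher with siATM than with sip53, by 0.29 and 0.21 (limma adjusted p = 0.0103 and 0.0270). BCL2 itself, described above, had its lowest values with siATM instead. Both calls against siNC were lost on dropping any single siNC or sip53 array (adjusted p at most 0.129 for MCL1 and 0.157 for BCL2L1), and in the direct comparison MCL1 was not called without either sip53 array and BCL2L1 without any single siATM or sip53 array.

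Of the 5 other BH3-only genes tested, BID, whose protein links death receptors to the mitochondrion, rose with siATM. Its log2 values were 9.11 and 9.20 with siATM and 8.73 and 8.70 with sip53, against 8.87 and 8.92 with siNC. The siATM difference of 0.26 (SE 0.06) had a limma adjusted p of 0.0198, which was lost without either siNC array or without siATM replicate 2 (up to 0.106), and siATM against sip53, 0.44 (SE 0.06, adjusted p = 0.00193), kept its call in all 13 alternatives. BNIP3L, an atypical member known for mitophagy, was lower with siATM than with sip53 (−0.24, limma adjusted p = 0.0241), a call lost without siATM replicate 2 or without either sip53 array. BIK, PMAIP1 and BNIP3 were called in none of the 3 comparisons by limma, and their differences from siNC lay between −0.05 and 0.14. Of the p53 targets named above, BAX and PMAIP1 had log2 differences of 0.11 and −0.05 with sip53 and 0.02 and 0.05 with siATM. BBC3 had 0.12 with sip53 and 0.46 with siATM. The p53 targets named are examples and not a full list, so these values do not describe p53 targets as a whole.

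Of the other multidomain family genes BAX, BOK, BCL2L12 and BCL2L13, 0 were called by limma against siNC, with 1 higher and 1 lower at an unadjusted p under 0.05 for sip53 and 0 for siATM. BCL2L12 had log2 values of 9.58 and 9.73 with siATM and 9.99 and 10.18 with sip53, against 9.86 and 9.75 with siNC, and was lower with siATM than with sip53 (−0.43, SE 0.09, limma adjusted p = 0.00905). That call was lost without sip53 replicate 2 (adjusted p = 0.0601).

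Of 5 inhibitor of apoptosis genes tested, BIRC5, the gene of survivin, which also acts in mitosis, fell with siATM. Its log2 values were 9.46 and 9.44 with siATM, against 9.94 and 9.82 with siNC, a difference of −0.43 (SE 0.06, limma adjusted p = 0.00346) that kept its call in all 13 alternatives. With sip53 BIRC5 log2 values were 9.68 and 9.63, also below both siNC arrays, with an uncalled difference of −0.23 (limma adjusted p = 0.0617), and siATM against sip53 was −0.20 (adjusted p = 0.0511). XIAP, BIRC2, BIRC6 and BIRC7 had siATM differences between −0.19 and 0.09 and were not called. In the death receptor arm 3 of 14 genes were tested. CFLAR, which encodes the caspase-like inhibitor FLIP, fell with sip53 (−0.36, SE 0.07, limma adjusted p = 0.0238), while its uncalled differences were −0.21 for siATM against siNC (adjusted p = 0.0758) and 0.15 for siATM against sip53 (adjusted p = 0.155), and the adaptor gene TRADD was higher with siATM than with sip53 (0.32, limma adjusted p = 0.0160). Dropping any single siNC or sip53 array ended the CFLAR call (adjusted p at most 0.138), and dropping siATM replicate 1 or sip53 replicate 1 ended that of TRADD (at most 0.103). The released protease gene HTRA2 and the nuclease gene ENDOG, the 2 tested of 6 listed, were called in no comparison by limma, with 0 also at an unadjusted p under 0.05.

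Regulators known to act on transcription of BH3-only genes or APAF1, all transcription factors but the pseudokinase TRIB3, moved both ways with siATM. Of 9 genes 2 were called higher and 4 lower, or 22.2% and 44.4%, against 12.5% and 13.0% of all genes tested. The list was chosen with earlier results of these data known, so nothing is read from these shares. E2F1, a known activator of APAF1, fell, with log2 values of 10.14 and 10.22 with siATM against 10.54 and 10.61 with siNC, a difference of −0.39 (SE 0.06, limma adjusted p = 0.00393). JUN (−0.36, adjusted p = 0.00450) and TP73, a p53 relative (−0.38, adjusted p = 0.00921), fell too, FOXO4 fell (−0.27, adjusted p = 0.0266), and FOXO1 rose (0.34, adjusted p = 0.0338). The other call was FOXO3 (0.24, adjusted p = 0.0279), named after its value was seen, whose difference was 0.10 with all its probe sets averaged (adjusted p = 0.318) which lost its call on dropping any single siATM or siNC array, and which has the close relative FOXO3B. FOXO4 after siATM was likewise named after its value was seen. E2F1 and JUN kept their call in all 13 alternatives, while FOXO1 lost it without any 1 array except siNC replicate 2, FOXO4 without either siNC array or siATM replicate 2, and TP73 without siNC replicate 2. With sip53 0 of these 9 were called by limma, with 0 higher and 2 lower at an unadjusted p under 0.05. Directly compared, JUN, TP73, E2F1 and FOXO4 were lower with siATM than with sip53, with log2 differences of −0.36, −0.34, −0.23 and −0.39. FOXO3 was higher with siATM than with sip53 (0.20, limma adjusted p = 0.0478), a call lost in 10 of 12 alternatives, among them the replicate block (adjusted p = 0.0589) and the mean of its probe sets (0.02, adjusted p = 0.818). JUN and FOXO4 kept their calls in all 13 alternatives, while TP73 lost its call without siATM replicate 1 or sip53 replicate 1, and E2F1 also without sip53 replicate 2.

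Among 6 tested kinases and partners of BAD, BIM and BMF, PIM1, a kinase that phosphorylates BAD, fell with sip53. Its log2 values were 9.59 and 9.64 with siATM and 9.15 and 9.22 with sip53, against 9.58 and 9.47 with siNC. The sip53 difference to siNC was −0.34 (SE 0.06, limma adjusted p = 0.0176), lost on dropping any single siNC or sip53 array (at most 0.119), and siATM against sip53 was 0.43 (SE 0.06, adjusted p = 0.00265), kept in all 13 alternatives. PIM2 was lower with siATM than with sip53 (−0.25, limma adjusted p = 0.0289), which was lost without any 1 array except siATM replicate 2. AKT1, AKT2, PIM3 and SFN were not called in any of the 3 comparisons, with differences from siNC between −0.09 and 0.10.

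The counts themselves depended on single arrays. With siATM 8 of the 36 other genes were called, and 4 without siNC replicate 1, siNC replicate 2 or siATM replicate 2. With sip53 4 were called by limma, and 0 on dropping any single siNC or sip53 array, where 8 to 10 had an unadjusted p under 0.05. For siATM against sip53 13 were called, with 7 left on dropping siATM replicate 1, 5 on dropping sip53 replicate 1 and 6 on dropping its replicate 2.

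**Figure D3:**
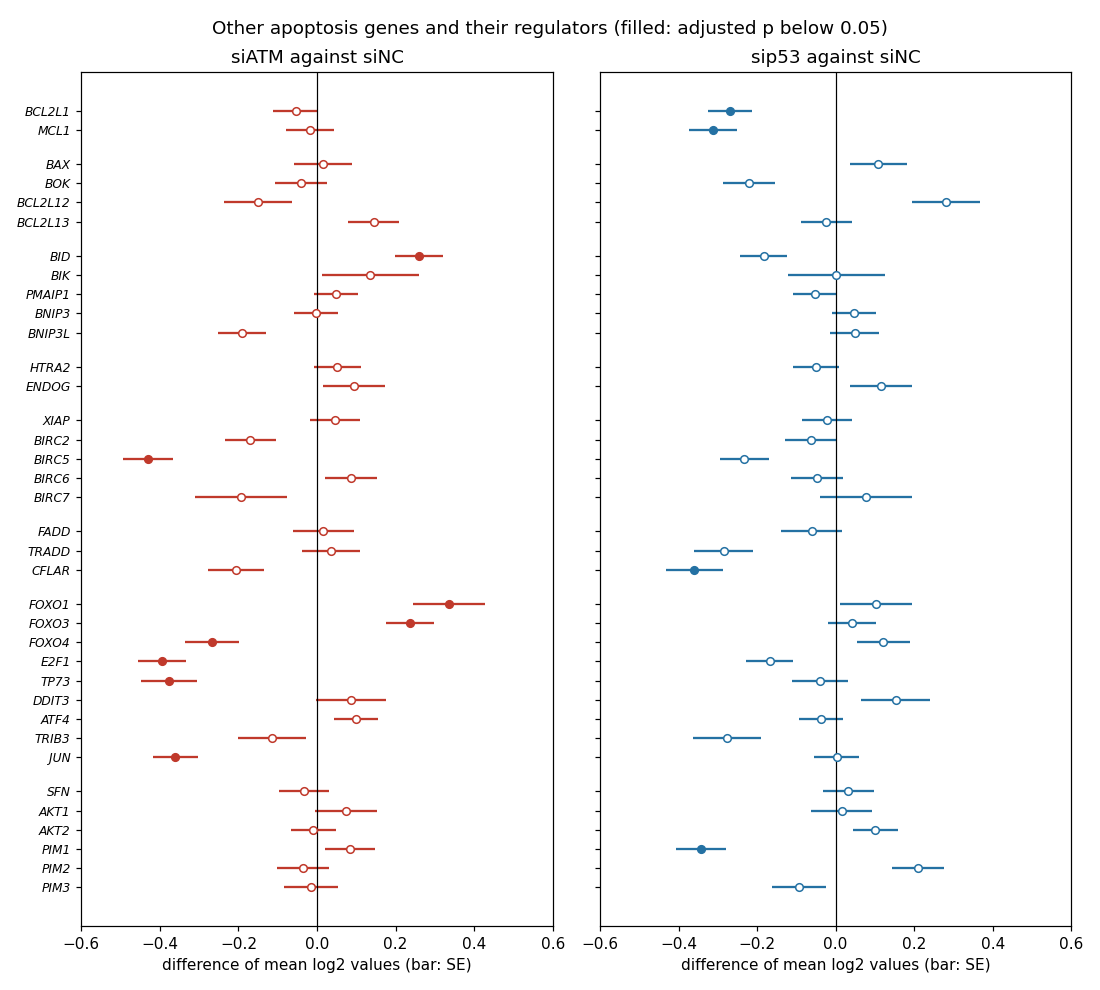
Difference of mean log2 values, with bars of 1 standard error, for the 36 tested genes of the lists around the 7 genes, grouped by list from top to bottom. Filled points passed the limma threshold, which 8 genes did with siATM, led by BIRC5 at −0.43, and 4 with sip53, led by CFLAR at −0.36.

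Genes whose values over the 6 arrays were most like those of the 3 members with the widest range of group means were found by the distance between log2 values after each gene's mean was subtracted. The search left out the members and symbols marking a gene as LOC, LINC, antisense, intronic transcript, microRNA or other small RNA. Nearest to APAF1 were MYEOV (distance 0.122 on the log2 scale), the mitotic kinase gene PBK (0.149) and the securin gene PTTG1 (0.165), whose siATM differences to siNC of −0.99, −0.92 and −1.09 lay around its −1.03. BMF had as its nearest genes the deubiquitinase gene YOD1 (0.132), the imprinted gene MEST (0.144) and CEP19 (0.180), with sip53 differences to siNC of 0.74, 0.67 and 0.66. For BCL2 they were the mitotic kinase gene AURKA (0.0924), TMEM263 (0.110) and FEZF1 (0.111), with siATM differences to siNC of −0.47, −0.37 and −0.53. These are descriptions over the same 6 arrays and carry no test.

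**Figure D4:**
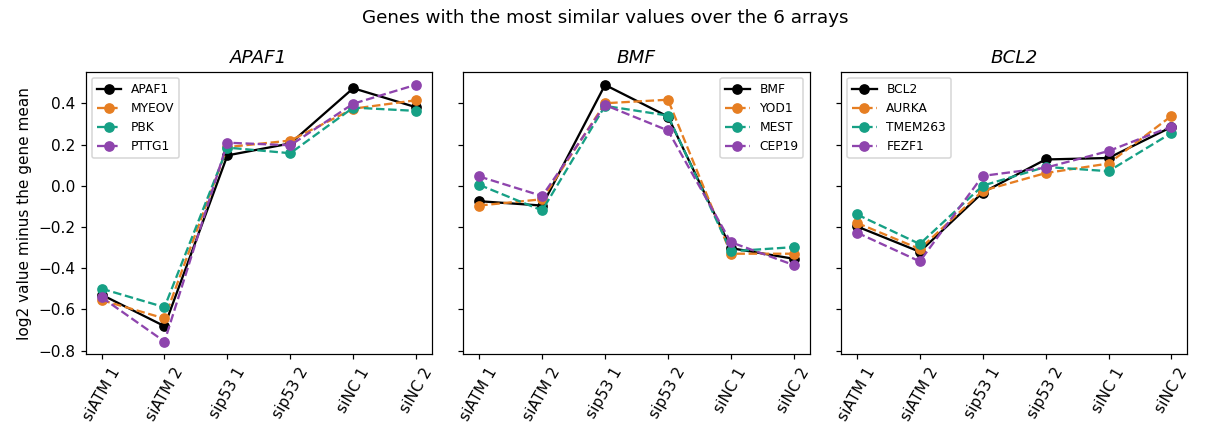
Log2 value minus the gene's mean on each of the 6 arrays for APAF1, BMF and BCL2 (solid black lines) and the 3 genes nearest to each (dashed lines). APAF1 and its neighbours are lowest on the siATM arrays, and BMF and its neighbours highest on the sip53 arrays.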

How the data were processed

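RNA from 6 samples was hybridised to 6 arrays, 2 per siRNA. The authors deposited 1 log2 value per probe set and array, with the log2 scale read here from the values. Background correction, probe summary, normalization and annotation build are not given in the sources used here. Arrays with nearly equal medians, as these have, show changes relative to other genes and not in total RNA. The platform annotation gave 16098 of 53617 probe sets 1 gene symbol, 0 several, and 37519 had none listed. For 779 genes with several probe sets the one with the highest mean was used.

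Genes with a mean log2 value of at least 5.96, the median of all probe-set means, were tested (10640 kept, 4244 left out) with limma (version 3.58.1, R 4.3.3), 1 mean per group over all 6 arrays, 3 residual and 7.29 total degrees of freedom, two-sided, Benjamini-Hochberg adjusted within each comparison over all genes tested. The standard error (SE) is the moderated one. Having 2 arrays a group limits the precision, and no batch was used. The fit was tested on simulated data.

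The members, lists and tests were chosen with earlier results of these data known. The genes named were the 7 members, up to 4 called genes of each list with the largest difference in each comparison, and the 3 genes nearest in pattern to each of 3 members. Genes outside this rule that are given as uncalled list members were named after their values were seen. Alternatives were no filter, a filter at the 70th percentile, quantile normalization, median centring, the mean of all probe sets, a variance trend with robust moderation, the replicate number as a block, and leaving out each array.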

Additional observations from a re-analysis of the deposited data

Results flagged for a closer look

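Given here are 6 genes in which both siATM arrays lay on one side of both siNC arrays and both sip53 arrays on the other side. This holds in the probe set used for each gene, and limma called all 6 for siATM against sip53. PMAIP1 and ATF4, called in no comparison, had the same pattern. Their differences to siNC were 0.05 and 0.10 for siATM and −0.05 and −0.04 for sip53. The share of all tested genes with this pattern was not counted. Lack of overlap with siNC alone held for 62.7% of them with siATM and 58.9% with sip53. BAD, chosen with its values known, had a log2 difference of 0.35 for siATM against sip53, given as a description, as were its differences of 0.23 for siATM and −0.11 for sip53 against siNC. The difference for siATM against sip53 was 0.44 for BID and 0.43 for PIM1, with siATM above and sip53 below siNC. It was −0.39 for FOXO4, −0.43 for BCL2L12 and −0.24 for BNIP3L, with siATM below and sip53 above siNC. For these 5 the pattern fixed the direction of that difference, and the opposite sides were not tested as such. Against siNC, limma called BID (0.26) and FOXO4 (−0.27) for siATM and PIM1 (−0.34) for sip53. The uncalled differences for siATM were 0.08 for PIM1 (adjusted p = 0.378), −0.15 for BCL2L12 (adjusted p = 0.247) and −0.19 for BNIP3L (adjusted p = 0.0592). Those for sip53 were −0.18 for BID (adjusted p = 0.104), 0.12 for FOXO4 (adjusted p = 0.306), 0.28 for BCL2L12 (adjusted p = 0.0873) and 0.05 for BNIP3L (adjusted p = 0.679). In BNIP3L the lower sip53 array and the upper siNC array were both at 12.31 after rounding. Gaps to siNC were narrow in other genes too. In PIM1 the lower siATM array was at 9.587 and the upper siNC array at 9.581. In BCL2L12 the upper siATM array was at 9.73 and the lower siNC array at 9.75. The upper sip53 array and the lower siNC array were at 10.4591 and 10.46 in ATF4, and at 10.6595 and 10.6668 in PMAIP1.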

How the results depend on the processing

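Differences of the 7 genes kept their sign under every alternative tried except BMF with siATM, at −0.024 with the mean of its 2 probe sets, and BAK1 with siATM, between −0.004 and 0.13 with 1 array left out. Over the 25 calls of other named genes, repeats under the alternatives kept the call 242 times, lost it 79 times and reversed it 0 times. Leaving out 1 array gave 1437 to 2226 called genes for siATM against siNC, 272 to 1242 for sip53 against siNC and 1842 to 2852 for siATM against sip53, and for the other apoptosis genes 4 to 7, 0 to 4 and 5 to 12. Without the filter on dim genes 481 genes were called for sip53 (1126 with it), 0 other apoptosis genes for sip53 and 4 for siATM. There the calls lost were BID, FOXO1, FOXO4 and FOXO3 for siATM, MCL1, BCL2L1, CFLAR and PIM1 for sip53, and BCL2L1, BNIP3L, E2F1, FOXO3 and PIM2 for siATM against sip53. PIM2 also lost its call with median centring. The variance trend gave 1742 genes for sip53 and 11 other apoptosis genes. The filter at the 70th percentile, under which BCL2 was too dim to be tested, gave 11 other apoptosis genes for sip53 too. With the replicate number as a block the called genes were 2696, 1001 and 3218, against 2708, 1126 and 3219 without it, in the same order, and the other apoptosis genes 9, 5 and 13. Same-numbered arrays deviated from their group means with correlations of 0.04, 0.03 and 0.12, and the labels give no shared batch, so the numbers were not taken as pairs. Why these counts moved was not tested.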
